A study of Mus musculus with 9 samples.

Results

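The genes described here were 10 members of the MHC class I antigen processing pathway, *Tap1*, *Tap2*, *Tapbp*, *Psmb8*, *Psmb9*, *Psmb10*, *B2m*, *H2-K1*, *H2-D1* and *Nlrc5*, of 37273 genes annotated on the mouse genome build mm9. They were chosen by name, and a peak was assigned to a member when its centre lay within 50 kb of that gene's start site. ChIP-seq of 2 NF-κB subunits was carried out in embryonic fibroblasts (MEFs) of Nfkb2-/- mice, which lack p100, after immortalization by the 3T3 procedure. Cells of this single genotype were left untreated (0 h) or treated with 10 ng/ml TNF for 6 h, and either RelA (named p65 in the labels) or RelB was immunoprecipitated, giving 2 libraries per factor and time. No wild-type library was analysed here, so no value below compares cells with and without p100. The labels do not say whether the 2 libraries of a group came from separate cultures, so p-values measure only the spread between these libraries. Each library has one list of called peaks, which holds their positions, FDR (false discovery rate), ChIP reads and input reads. It also holds the log2 fold of the strongest window of a peak over scaled input chromatin.

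MHC class I molecules display peptides from inside the cell to cytotoxic T cells. The immunoproteasome subunits Psmb8, Psmb9 and Psmb10 replace constitutive subunits and change which peptides are cut. Tap1 and Tap2 form the transporter that moves peptides into the endoplasmic reticulum, where tapasin (Tapbp) holds the transporter next to empty class I molecules. H2-K1 and H2-D1 encode heavy chains, B2m encodes the light chain that pairs with them, and Nlrc5 is a transactivator of class I genes. Class I promoters are known to carry an NF-κB element close to an interferon-response element.

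At 6 h, 50 peaks near the members formed 22 sites, where a site is a run of overlapping peaks from any library, out of 15069 sites in all 8 lists. Of these 22 sites, 7 were called in all 4 libraries at 6 h, 2 in 3 libraries, 3 in 2 libraries and 10 in 1 library. Among all 14779 sites at 6 h, 12.6% were called in all 4 libraries. The RelA libraries had 15 and 11 peaks near the members, and the RelB libraries had 10 and 14. These were 0.213% and 0.193% of the RelA peaks and 0.193% and 0.209% of the RelB peaks, and the 2 ranges overlapped. No library at 0 h had a peak near any member. The 4 lists at 0 h held only 425 peaks together, and the share seen at 6 h would have given 0.863 peaks among them, so the absence of a call near the members at 0 h cannot be told apart from the short lists. Peaks near the members held between 11 and 62 ChIP reads. Total reads per library are unknown, and intervals on reads cover counting error only.

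**Figure D1:**
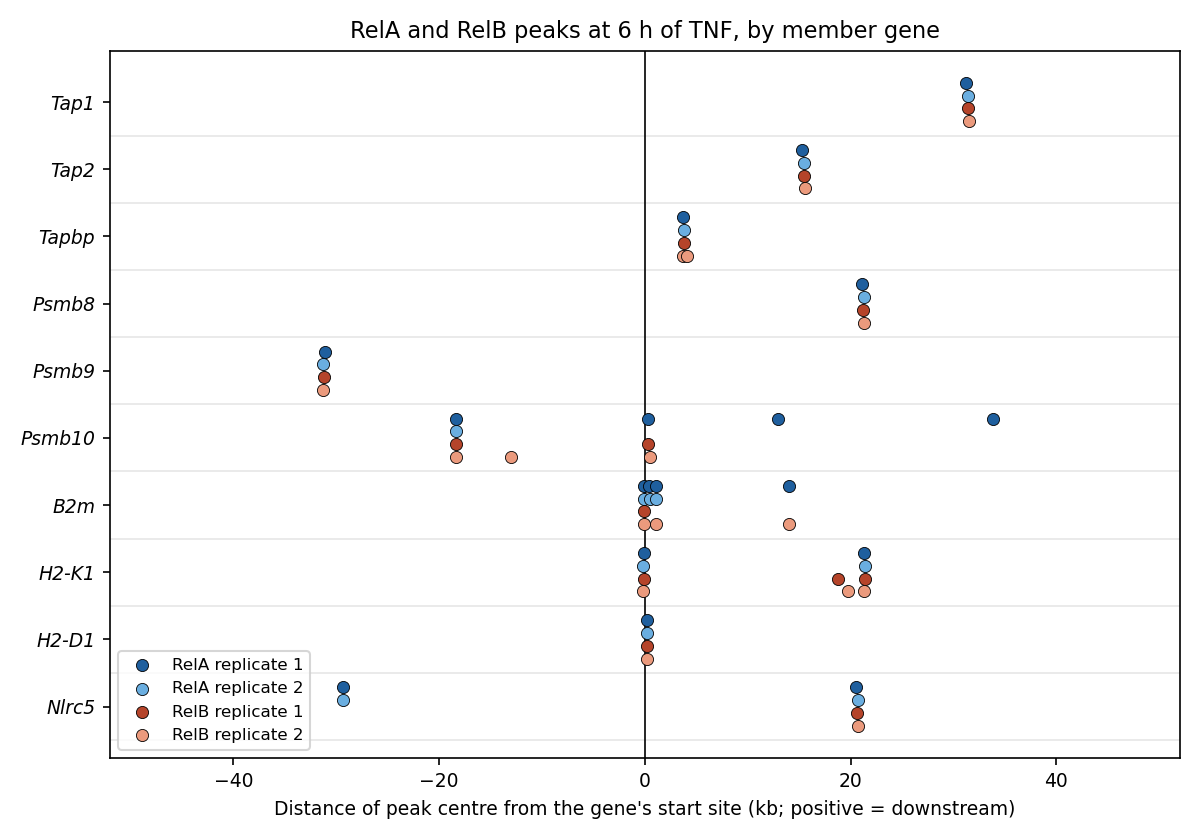
Distance of each peak centre from the start site of its gene (horizontal axis, kb, positive downstream) for the 10 genes (rows), with one point per peak and one colour per library at 6 h. Points of all 4 libraries stack at the start sites of *B2m*, *H2-K1* and *H2-D1*, and a single site appears in the rows of *Tap1*, *Tap2*, *Psmb8* and *Psmb9*.

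In all, 10 sites were called in both libraries of at least one antibody, and each held a match to the κB consensus within 100 bp of its centre. One match per site is shown. Each printed match lies inside its site but not always inside the peak of every library. Past *Tap2* the match ends at 34355884, before the peaks of RelA replicate 2 and both RelB libraries, which start at 34355894 or 34355900. The matches printed for the *B2m*, *H2-D1* and *Psmb10* starts and the *Nlrc5* intron lie outside the peak of RelB replicate 2. The sequences were read from mm9, 5′ to 3′ on the strand given, with the κB match in capitals.
B2m start (chr2:121973282-121973321, plus): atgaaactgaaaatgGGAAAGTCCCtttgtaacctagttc
H2-K1 start (chr17:34137378-34137417, plus): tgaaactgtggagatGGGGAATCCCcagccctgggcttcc
H2-K2 start (chr17:34115902-34115941, plus): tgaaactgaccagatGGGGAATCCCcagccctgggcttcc
H2-D1 start (chr17:35399858-35399887, plus): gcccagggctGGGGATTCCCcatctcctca
Tapbp internal start (chr17:34056536-34056565, plus): gaccagatcgGGGAATTTCCagttcctcac
Psmb10 start (chr8:108461986-108462015, plus): ggcttctgtgGGGTTTTTCCggacgcttcc
Slc12a4 intron (chr8:108480628-108480667, plus): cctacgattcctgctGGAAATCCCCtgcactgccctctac
Nlrc5 intron (chr8:97017318-97017357, plus): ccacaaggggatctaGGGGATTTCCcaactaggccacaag
Upstream of Nlrc5 (chr8:96967321-96967360, plus): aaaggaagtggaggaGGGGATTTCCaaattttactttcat
Past Tap2 (chr17:34355860-34355899, minus): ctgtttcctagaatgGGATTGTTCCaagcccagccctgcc

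The light chain gene *B2m* had the highest fold over input of the 22 sites in both RelA libraries and in RelB replicate 1, but not in RelB replicate 2, where 3 other sites stood above it. Its start-site region, chr2:121973008-121973694, was called in all 4 libraries with its mean centre 80 bp upstream of the start. For RelA the log2 fold over input reached 4.52 and 4.39, and RelB gave 4.09 and 3.81, so both RelA values lay above both RelB values. In either order, the 2 antibodies did not overlap at 48.7% of all 1860 sites called in all 4 libraries. The peaks held 38 and 51 ChIP reads in the RelA libraries, against 40 and 18 in those of RelB, and the exact Poisson 95% interval of the lowest was 10.7 to 28.4. In the authors' ranking the peak was number 74 of 7052 and 90 of 5688 for RelA, and 218 of 5192 and 3104 of 6698 for RelB. The call in RelB replicate 2 thus rested on a peak of 30 bp with an FDR of 0.00462, while the FDR was listed at 0 in the other 3 libraries. The κB match printed above lies 121 bp upstream of the start and a few bases past an interferon-type match. Downstream, 4 more sites lay in introns of *B2m* and of the overlapping gene *Patl2*. Of these, chr2:121974428-121974523 was called in RelA replicate 2 (log2 fold 3.17, 19 reads) and RelB replicate 2 (3.86, 42 reads), and the other 3 were called in 1 RelA library each. The sixth site, chr2:121987304-121987533 in introns of *Patl2* and *Trim69*, was called in RelA replicate 1 and RelB replicate 2 with 12 and 11 reads.

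The heavy chain genes were bound at their start sites by both factors. At *H2-K1*, chr17:34137221-34137651 was called in all 4 libraries, 138 bp upstream of the start. RelA gave log2 folds of 2.87 and 2.40, on 56 and 45 reads. RelB gave 2.50 and 2.80, on 31 and 40 reads, and the values of the antibodies overlapped. At *H2-D1*, chr17:35399539-35400183 was called in all 4 libraries, 219 bp past the annotated gene start and in an annotated UTR. Relative to another annotated *H2-D1* transcript start it lay at -145 bp, where negative is upstream. RelA gave log2 folds of 4.09 and 4.17, on 37 and 44 reads. RelB gave 3.70 and 4.0, on 28 and 34 reads, so both RelA values lay above both RelB values here too. The highest FDR was 0.000514 at *H2-K1* and 7.8e-05 at *H2-D1*.

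Another site of the *H2-K1* neighbourhood, chr17:34115774-34116130, lay 21341 bp downstream of the start of that gene. It was 204 bp from the start of *H2-K2*, a related class I gene that the annotation used here does not type as protein-coding. It was called in all 4 libraries with a highest FDR of 0.00239. The RelA libraries stood at log2 folds of 2.36 and 2.22, and the RelB libraries at 2.32 and 2.49, so the values overlapped. Of the 40 bases printed around the κB match, 37 were the same at *H2-K1* and *H2-K2*. A second κB match was shared more widely. Over 30 bases, *H2-K1* (chr17:34137400-34137429, plus) and *H2-D1* (chr17:35399842-35399871, minus) were the same at all 30, and *H2-K2* matched *H2-D1* at 29.
Shared by H2-K1 and H2-D1: ccccagccctGGGCTTCCCCacccctgacc
The authors kept reads that aligned to one place only, so reads lying wholly within a sequence repeated elsewhere could not contribute. Of the 952 runs of 50 bases within 500 bp of each start site, 36 (3.78%) at *H2-K1* and 29 (3.05%) at *H2-D1* occurred elsewhere in the genome, and none did at the other 8 members. With runs of 36 bases the shares were 11.8% and 10.0%, against 0.311% at *Tap2*, 0.621% at *Tapbp*, 0.725% at *Psmb10* and none at the other members. The read length is not given in the sources used here. The last 2 sites near *H2-K1*, chr17:34117426-34117670 and chr17:34118282-34118678, were each called in one RelB library, with 11 and 21 reads.

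Tapasin was bound within its gene. The site chr17:34056540-34056820 lay 3779 bp downstream of the *Tapbp* gene start and between 166 and 346 bp past 3 annotated transcript starts inside the gene. Its log2 fold was 2.66 and 3.11 in the RelA libraries, on 23 and 38 reads, and 2.97 in RelB replicate 1, on 29 reads, with an FDR of at most 0.000725. RelB replicate 2 had no peak overlapping it but had a peak on either side, chr17:34056497-34056526 (2.65, 25 reads) and chr17:34056823-34057101 (2.78, 14 reads). By the overlap rule *Tapbp* therefore had no replicated RelB peak, although all 4 libraries had a peak within this short stretch.

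*Tap1*, *Tap2*, *Psmb8* and *Psmb9* stand side by side on chromosome 17, and all 4 shared a single site. No peak lay closer to their start sites than this one. The site chr17:34355507-34356132 was intergenic, past the end of *Tap2*, at 15440 bp from the *Tap2* start, 21246 bp from *Psmb8*, 31414 bp from *Tap1* and 31203 bp from *Psmb9*, upstream of the last. It was called in all 4 libraries, with a highest FDR of 0.000314. RelA gave log2 folds of 2.79 and 2.83, on 30 and 37 reads, whereas RelB gave 3.91 and 3.14, on 62 and 55 reads. Both RelB values lay above both RelA values, the opposite order to *B2m*. A lack of overlap in either order held at 48.7% of all 1860 sites, and the fit below called neither difference. The transporter and the immunoproteasome subunits of this cluster thus count as 4 genes but as 1 site in every total below. The nearest annotated start site was that of *Gm15821*, at 4508 bp. The 50 kb rule alone links the site to the 4 members.

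The immunoproteasome gene on another chromosome, *Psmb10*, had 5 sites. The strongest, chr8:108480571-108480734, lay 18375 bp upstream in an intron of *Slc12a4* and was called in all 4 libraries, with FDRs listed at 0. RelA gave log2 folds of 3.68 and 3.44, on 42 and 53 reads. RelB gave 3.42 and 3.97, on 32 and 59 reads, and the values overlapped. At the *Psmb10* start, chr8:108461765-108462149 was called in RelA replicate 1 (2.68, 21 reads) and in both RelB libraries (2.14 and 1.97, 14 and 11 reads), but the RelB peaks did not overlap each other. The FDR reached 0.0859 in RelB replicate 2, close to the calling limit of 0.1, so this start-site call is among the weakest of the set. The other 3 sites were called in 1 library each, with 11 to 17 reads.

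The transactivator *Nlrc5* had no peak near its start. An intronic site, chr8:97017037-97017541, lay 20668 bp into the gene and was called in all 4 libraries, with a highest FDR of 0.00927. RelA gave log2 folds of 2.99 and 1.89, on 28 and 18 reads, and RelB gave 2.06 and 2.24, on 17 and 23 reads. The RelB values thus lay between the RelA values. The 2 RelB peaks did not overlap each other and were not counted as replicated. A second site, chr8:96967180-96967472, lay 29352 bp upstream and was called in the RelA libraries alone, at 2.57 (13 reads, FDR 0.0303) and 2.73 (21 reads, FDR 0.000314). Whether RelB bound there below the calling limit was not tested.

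**Figure D2:**
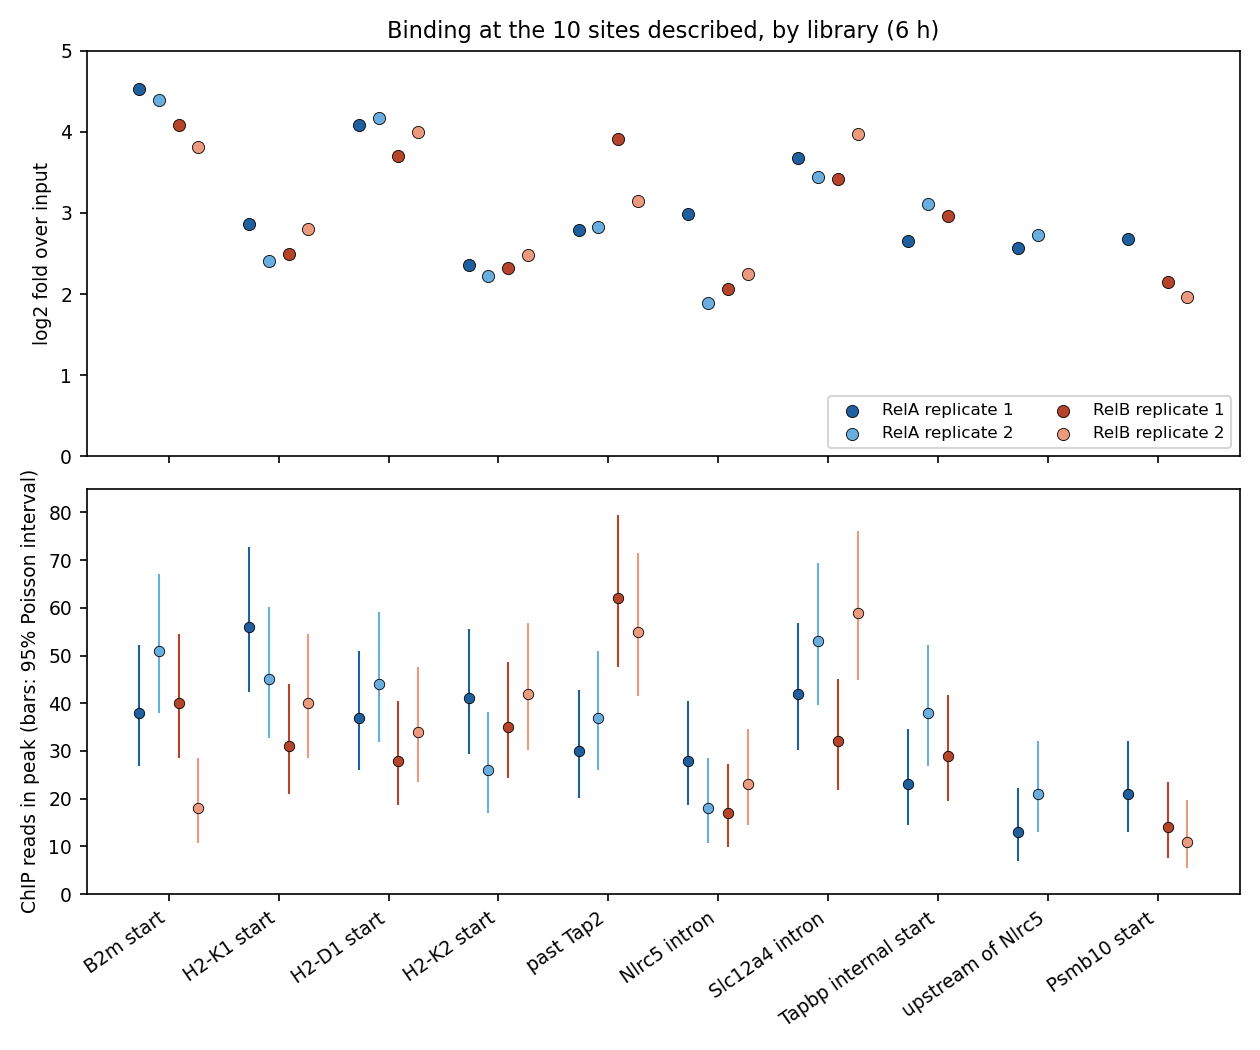
Log2 fold over input (upper axis) and ChIP reads in the peak with exact Poisson 95% intervals (lower axis) at the 10 sites, one point per library at 6 h, with no point where no peak was called. The *B2m* start holds the highest fold, 4.52, and at the site past *Tap2* both RelB libraries lie above both RelA libraries. The 2 antibodies did not overlap, in either order, at 48.7% of all 1860 sites called in all 4 libraries.

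Across the 10 members, 10 had a replicated RelA peak within 50 kb, 8 had a replicated RelB peak and 8 had both, where a replicated peak is one that overlaps in the 2 libraries of an antibody. Over all annotated genes the shares were 11.9%, 12.7% and 8.23%. The members are not independent in this count, because *Tap1*, *Tap2*, *Psmb8* and *Psmb9* share one site. Within 1 kb of the start, *B2m*, *H2-K1* and *H2-D1* had both factors, 3 of 10, against 1.23% of all genes for RelA, 1.05% for RelB and 0.665% for both. The members were chosen with results of these data known, so no test was made of the difference.

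**Figure D3:**
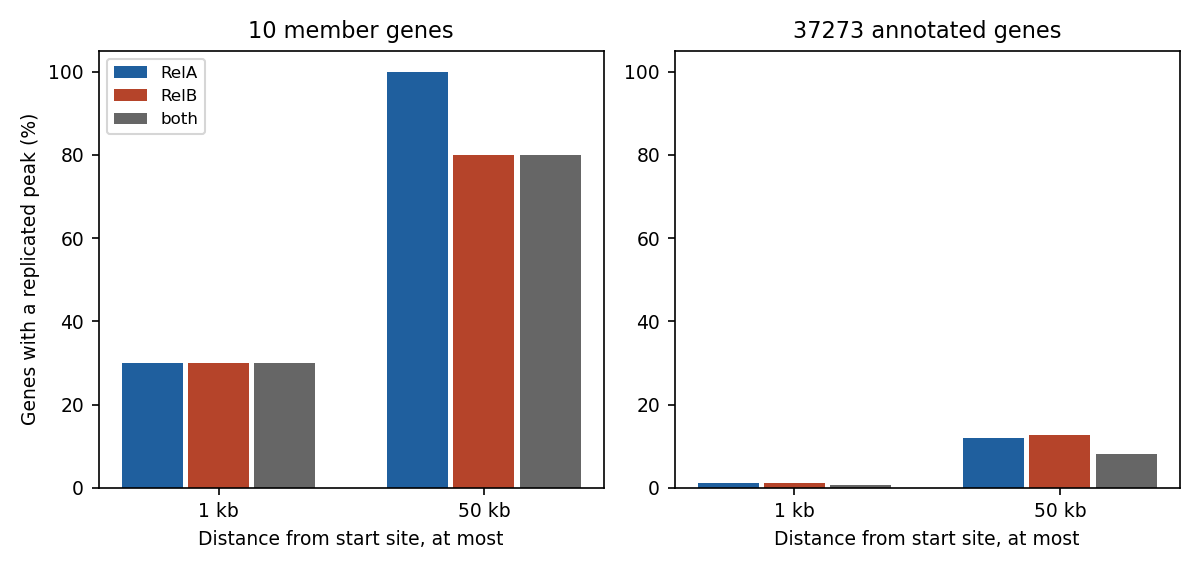
Share of genes (vertical axis, percent) with a replicated peak of RelA, RelB or both within 1 kb and 50 kb of the start site (horizontal axis), for the 10 members (left) and 37273 annotated genes (right). All 10 members lie within 50 kb of a RelA peak, and the 3 within 1 kb are *B2m*, *H2-K1* and *H2-D1*.

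RelA and RelB were compared at the 7 member sites called in all 4 libraries, in a limma fit over all 1860 such sites with each library centred on its median. The fit called 11 of the 1860 sites (0.591%) at a Benjamini-Hochberg adjusted p under 0.05, and none of the 7 member sites was among them. Unadjusted, 313 of the 1860 sites and none of the members fell under 0.05. The lowest unadjusted limma p of a member was 0.0526, at the *B2m* start. Without centring, with a replicate block, or with peaks at an FDR under 0.01, 1 member site fell under an unadjusted limma p of 0.05. An edgeR fit of the window reads called none of the 7 at an adjusted p under 0.05. The log2 difference (RelA minus RelB) was highest at the *B2m* start, 0.59 ± 0.27 (SE, n = 2 libraries per antibody, limma 95% interval -0.01 to 1.20, adjusted p = 0.300), where RelA was higher. It was lowest past *Tap2*, -0.63 ± 0.32 (95% interval -1.33 to 0.06, limma adjusted p = 0.333), where RelB was higher. The *H2-D1* start gave 0.36 (-0.23 to 0.96), the *Nlrc5* intron 0.37 (-0.40 to 1.14), the *H2-K1* start 0.07 (-0.56 to 0.69), the *H2-K2* start -0.03 (-0.62 to 0.55) and the *Slc12a4* intron -0.05 (-0.69 to 0.58). In the raw values the 2 antibodies did not overlap at 3 of 7 sites, *B2m*, *H2-D1* and past *Tap2*, against 48.7% of all 1860 sites. With intervals that reach -1.33 and 1.20, these values do not show that both factors bound equally. At the *Nlrc5* intron the difference was -0.12 without RelA replicate 1.

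**Figure D4:**
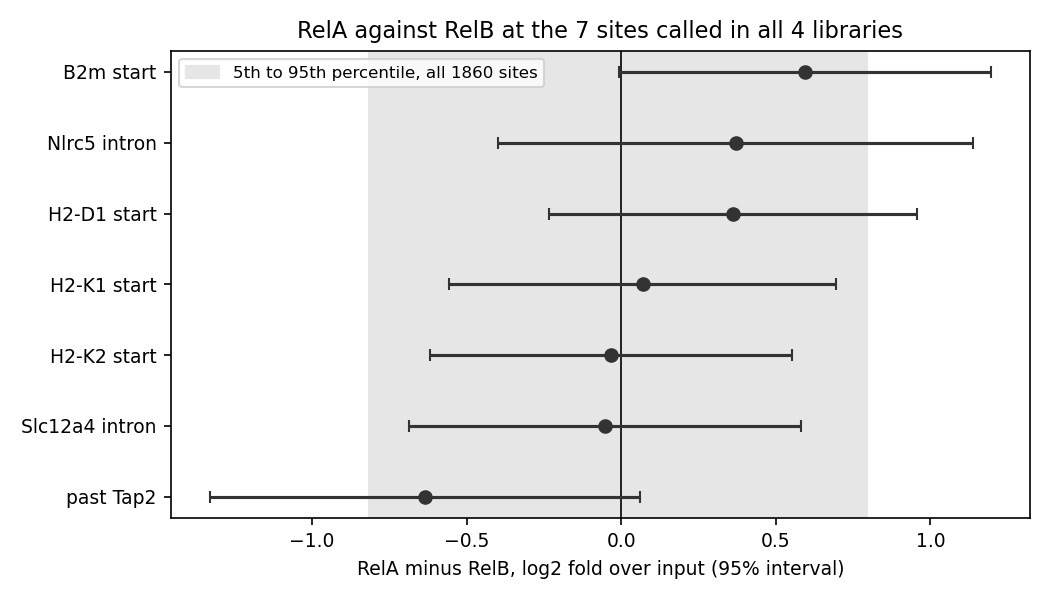
RelA minus RelB in log2 fold over input (horizontal axis) at the 7 member sites called in all 4 libraries, with limma 95% intervals as bars and the 5th to 95th percentile of all 1860 sites, -0.82 to 0.79, as the grey band. Each interval includes 0 and each point lies within the band.

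The κB match, searched on both strands, was present within 100 bp of the centre in all 10 member sites called in both libraries of an antibody, against 71.6% of the 4036 such sites across the genome and 11.8% of windows 1000 bp away from them. Windows 1000 bp away from the 10 member sites held a match in 4 of 20 (20%, Wilson 95% interval 8.07 to 41.6%). Among the 7 called in all 4 libraries the share was 7 of 7, against 79.9% of 1860. Of these 7, 4 lay within 1 kb of an annotated start site, against 13.5% of the 1860, so the sets differed in position. With 10 sites, the Wilson 95% interval reached down to 72.2%. That interval takes the sites as independent, but the *H2-K1*, *H2-K2* and *H2-D1* sites share most bases around their matches. It may therefore be too narrow. Of the 10 member sites called in 1 library, 4 held a match, near the 33.7% of all 10038 such sites. The match counted for chr17:34056497-34056526 in *Tapbp* was the one printed above for the *Tapbp* internal start, so it entered both sets.

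A second sequence, GAAANNGAA, which is the letter pattern of interferon-response elements, was found in 4 of the 10 sites, or 40% (Wilson 95% interval 16.8 to 68.7%), against 7.43% of the 4036 sites and 7.37% of their flanks. With windows of 50 bp, 2 of the 10 sites held a match (20%, Wilson 95% interval 5.67 to 51.0%), against 3.39% of all such sites. With windows of 250 bp the count was again 4 of 10. The share of all such sites then was 17.6%, which lies inside the interval. The matches, in capitals, are shown because they stand beside the κB matches printed above.
B2m start (chr2:121973269-121973307, plus): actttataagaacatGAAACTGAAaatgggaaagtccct
Tapbp internal start (chr17:34056576-34056604, plus): gaaggaaaatGAAAGTGAAaggggaagaa
Psmb10 start (chr8:108462010-108462038, minus): gggtgggggtGAAAGCGAAagtaggaagc
Past Tap2 (chr17:34355878-34355916, plus): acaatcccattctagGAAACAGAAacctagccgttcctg
The letters TGANTCA, the pattern bound by AP-1, were found in none of the 10 sites (Wilson 95% interval 0 to 27.8%). The share of the 4036 was 17.8%, which lies inside that interval. With windows of 250 bp none of the 10 held a match either, against 29.9%, just above the interval. A match describes the letters in these windows and is not a measured binding site.

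**Figure D5:**
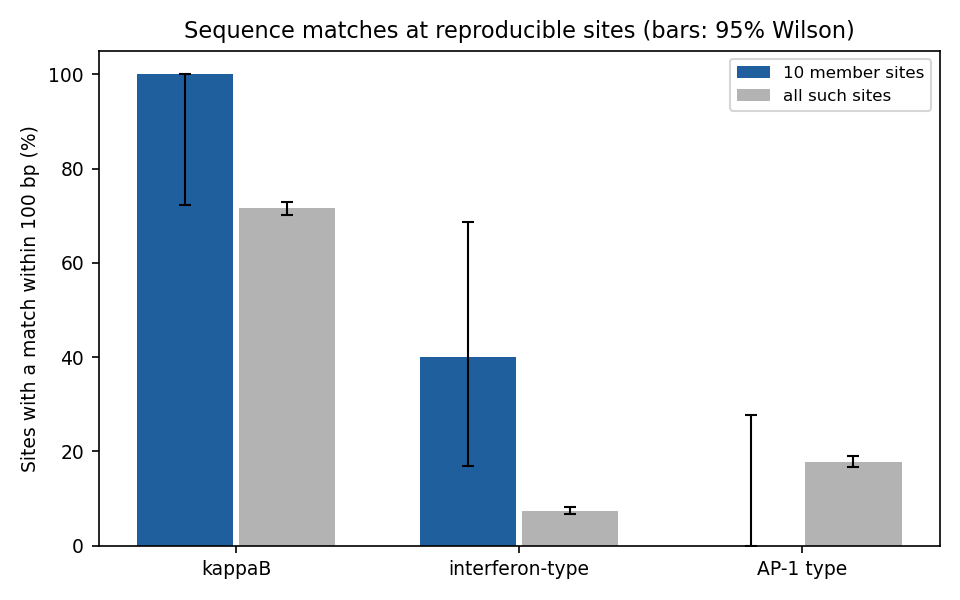
Share of sites (vertical axis, percent, with Wilson 95% intervals) with a κB, GAAANNGAA (interferon-type) or TGANTCA (AP-1 type) match within 100 bp of the centre, for the 10 member sites (blue) and the 4036 sites called in both libraries of an antibody (grey). The κB bars stand at 100% and 71.6% and the interferon-type bars at 40% and 7.43%.

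The promoters of all members, taken as 250 bases before to 50 after the start, held a κB match in 5 of 10 (*Tap2*, *Psmb8*, *B2m*, *H2-K1* and *Nlrc5*), against 23.6% of all annotated genes. These windows were set on the gene start, so the κB matches of the *H2-D1* site, which lie past it, were not counted. Those matches lie upstream of another annotated *H2-D1* transcript start. The letters GAAANNGAA were in 1 of the 10 promoters, against 9.93% of all genes, and TGANTCA in 2 of 10, against 7.56%. The κB matches in the promoters of *Tap2*, *Psmb8* and *Nlrc5* had no peak on them in any library, while those of *B2m* and *H2-K1* lay inside the sites described above.

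Other genes of the pathway were read from lists of related genes, whose counts stand against the 11.9% (RelA), 12.7% (RelB) and 8.23% (both) of all annotated genes given above. Neighbouring genes of these lists share sites, so they are not independent. Among 6 genes of peptide loading and trimming, only *Canx*, which encodes the chaperone calnexin, had a replicated peak, of RelA alone, 33416 bp from its start. Among 7 proteasome partners, *Psme2*, a subunit of the proteasome activator, had a replicated RelA peak 291 bp upstream of its start with log2 folds of 3.49 and 3.27, and *Psme1* shared it at 13281 bp. Neither had a replicated RelB peak. Of 12 annotated further class I heavy chain genes, 7 had RelA and 5 had both, and *H2-Q4* (RelA at 231 bp upstream, log2 folds 2.14 and 2.48), *H2-T10* (261 bp upstream, 2.68 and 3.24) and *H2-T22* (304 bp upstream, 2.68 and 2.70) had RelA at the start site. *H2-T23*, *H2-T22* and *H2-T24* share sites, *H2-Q6* shares the site of *H2-Q4*, and *Mr1* had both factors, the closest RelA peak at 12540 bp. Among genes that act on transcription of class I genes, *Irf1*, *Irf2* and *Creb1* had both within 1 kb of the start, at log2 folds for *Irf1* of 3.36 and 3.17 (RelA) and 3.12 and 2.65 (RelB). *Rfx5* and *Nfya* had a replicated peak of RelA alone. Of 10 genes of the class II pathway, 4 had RelA, 7 had RelB and 4 had both, and 2 of them, *H2-Ab1* and *H2-Ob*, reach the site past *Tap2* that was assigned to the 4 members. None of the 10 had both within 1 kb.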

How the data were processed

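Single-end reads were trimmed by the authors with cutadapt and mapped with Bowtie on mm9. Reads with a unique location entered cisGenome, with Nfkb2-/- input as control, as the methods state. The series design text describes this input as combined from both replicates, and one list was deposited for each library. The deposited lists give a q-value (FDR) of each call, the log2 fold over input scaled by the authors, and raw counts of ChIP and input reads in each peak. The input library has no file that was used here. The total depth is unknown and the read length is not given in the sources used here.

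Peaks overlapping by at least 1 bp formed sites. Start sites came from GENCODE on mm9, with mitochondrial genes left out and the longest entry used where a symbol had 2. *Nlrc5* is typed there as lincRNA. limma 3.58.1 and edgeR 4.0.16 in R 4.3.3, and Python 3.11.15 with numba 0.67.0, were used. The edgeR quasi-likelihood test on window reads was an alternative. Site merging, matching, repeats and fits were tested on simulated data. Members and lists were chosen with earlier results of these data known. All members are named, with every site. Lists of other genes are named where a replicated peak occurred. Alternatives are given in the closing section. The lists of peptide loading, proteasome partners, class I heavy chain and class II genes are given with their counts. One gene of the transcription list is not reported here, so that list has no count. H2-L and H2-Q1 were not annotated.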

Additional observations from a re-analysis of the deposited data

How the results depend on the processing

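At 10 kb there were 11 sites and 3 called in all 4 libraries, instead of 22 and 7. When peaks with centres within 500 bp were joined, there were 17 sites and 8 called in all 4 libraries, among them the stretch in *Tapbp*. No member site was called in any RelA and RelB comparison, and 70 alternative values at single sites had a lowest limma or edgeR adjusted p of 0.213. Over all sites, limma called 24 at an FDR under 0.01 and 0 (327 at an unadjusted p under 0.05) with centres within 500 bp, an alternative added after seeing the data, and edgeR called 43, instead of 11. Leaving out one library gave 0 to 29. A fit with a replicate block called 85. The deviations of same-numbered libraries across sites had r = -0.00256, so the numbers were not taken to pair the libraries. The sign of RelA minus RelB turned at 4 sites. The *H2-K1* start, near 0 in the main fit, gave -0.014 without centring and -0.11 to 0.31 without one library. The *Slc12a4* intron, also near 0, gave 0.0063 with edgeR and -0.30 to 0.18 without one library. The *H2-K2* start, also near 0, gave -0.084 to 0.043 without one library. The *Nlrc5* intron, at 0.37 in the main fit, gave -0.013 with edgeR and -0.12 to 0.93 without one library. The cause of these sign changes was not tested.

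The share of all genes with a replicated peak within 50 kb moved with distance, for RelA from 11.9% to 1.23% (1 kb), 3.48% (10 kb) and 21.0% (100 kb), for RelB from 12.7% to 1.05%, 3.51% and 22.7%, and for both from 8.23% to 0.665%, 2.21% and 15.5%. Protein-coding genes gave 13.3%, 14.1% and 9.12%, an FDR under 0.01 gave 8.65%, 10.3% and 6.33%, and one library standing for its antibody gave 21.9 to 26.4%, 19.9 to 23.8% and 9.79 to 10.96%. Members with a replicated peak fell from 10, 8 and 8 to 4, 3 and 3 at 10 kb. At 1 kb they fell to 3, 3 and 3, where *Tapbp* (RelA at 10 kb) was no longer counted. At 100 kb they were 10, 9 and 9. With either RelB library standing for its antibody, 10 members had RelB and 10 had both. With either RelA library alone, 10 had RelA and 8 had both. κB shares at all sites called in both libraries of an antibody were 51.3% and 82.2% for windows of 50 and 250 bp and 76.7% for a looser consensus. Of the 10 member sites 8 (80%, Wilson 95% interval 49.0 to 94.3%), 10 and 9 (90%, 59.6 to 98.2%) held a match, so at 50 bp and with the looser consensus the intervals include the share of all such sites. Repeated runs at *H2-K1* and *H2-D1* were 11.8% and 10.0% at 36 bases and 0% and 0.216% at 75. At 10 kb, 1 other class I and 2 class II genes had both factors, instead of 5 and 4. The lists give no value where no peak was called, and total depth is unknown, so weaker binding at the members was not detectable.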
